A study of Mus musculus with 12 samples.

Results

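The genotype effect in colonic mucosa was examined in 6 of the 12 libraries of the series, 3 from mice lacking Slc39a8 in intestinal epithelial cells (Slc39a8-IEC KO) and 3 from control mice. These are all libraries whose labels name the colon, and the other 6 are ileal. By the labels the mice were of strain C57BL/6J, and both groups carry the floxed Slc39a8 allele. The KO mice also carry Cre recombinase under the Villin promoter, which is active in epithelial cells of the small and large intestine and leaves the gene intact in the other cells of the gut wall. The study's methods describe its control mice as a mixture of genotypes, whereas the labels give floxed mice without Cre for every control library. The study describes the sequenced mice as male and 8 weeks old. Each library was made by oligo-dT priming from total RNA of 1 mouse, from what the study describes as mucosa. Epithelial, immune and stromal transcripts were thus measured together, and fewer cells of a type cannot be told apart from less RNA per cell. The values are expected counts per gene, given below as CPM, the count of a gene relative to the scaled library size.

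Slc39a8 encodes ZIP8, a transporter of the ZIP family that carries manganese and other divalent metals into cells. Manganese is a cofactor of many Golgi glycosyltransferases, of mitochondrial superoxide dismutase and of arginase. The colonic epithelium consists mainly of absorptive colonocytes and mucus-secreting goblet cells that are renewed from stem cells at the base of the crypts.

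The colonic libraries held between 17531591 and 20502605 expected counts. In a principal component analysis of log2 CPM, the first axis (27.2% of the variance) placed control replicate 1 at -45.9 and KO replicate 3 at 26.7, with the other 4 libraries between 3.26 and 6.88, so it did not separate the genotypes. The summed level of 10 general epithelial markers was 12548 to 14116 CPM in control and 12735 to 14210 CPM in KO libraries, and that of the colonocyte markers was 43010 to 57294 CPM in control and 37637 to 47394 CPM in KO libraries. Smooth muscle markers were present in all 6 libraries, at 4020 to 6150 CPM in control and 4016 to 5236 CPM in KO libraries. Markers of enteric neurons, glia and pacemaker cells summed to 107 to 184 CPM in control and 154 to 181 CPM in KO libraries. Upk3b, a marker of the outer lining of the gut, was at 22.6 to 45.1 CPM in control and 7.57 to 15.1 CPM in KO libraries. The libraries thus held RNA of the outer gut wall and not of mucosa alone. For a single gene, 3 libraries against 3 allow no exact two-sided permutation p below 0.1.

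Only Spink1 passed the threshold between the genotypes in colon, an adjusted p under 0.1 in edgeR's quasi-likelihood test. It fell, and it was 1 of 15700 genes tested (0.00637%), while no gene rose past the threshold (0%). The adjusted p of every other gene was above 0.1 in edgeR, so the values of those genes are given below as differences that this test did not call. At an unadjusted p under 0.05, 503 genes were higher (3.2%) and 672 were lower (4.28%) in the KO libraries. The groups did not overlap in 1071 genes with the KO libraries above (6.82%) and in 993 with the KO libraries below (6.32%). The median log2 fold change over all genes was -7.5e-05. DESeq2, the tool the study used, called 36 genes higher (0.268%) and 75 lower (0.559%) of 13415 genes to which it gave an adjusted p, and limma-voom called 3 genes. The count of DESeq2 ranged from 31 without KO replicate 1 to 160 without control replicate 3, and in its model of all 12 libraries DESeq2 called 0 genes. The number of genes past the threshold in colon thus depended on the tool and on single libraries.

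**Figure D1:**
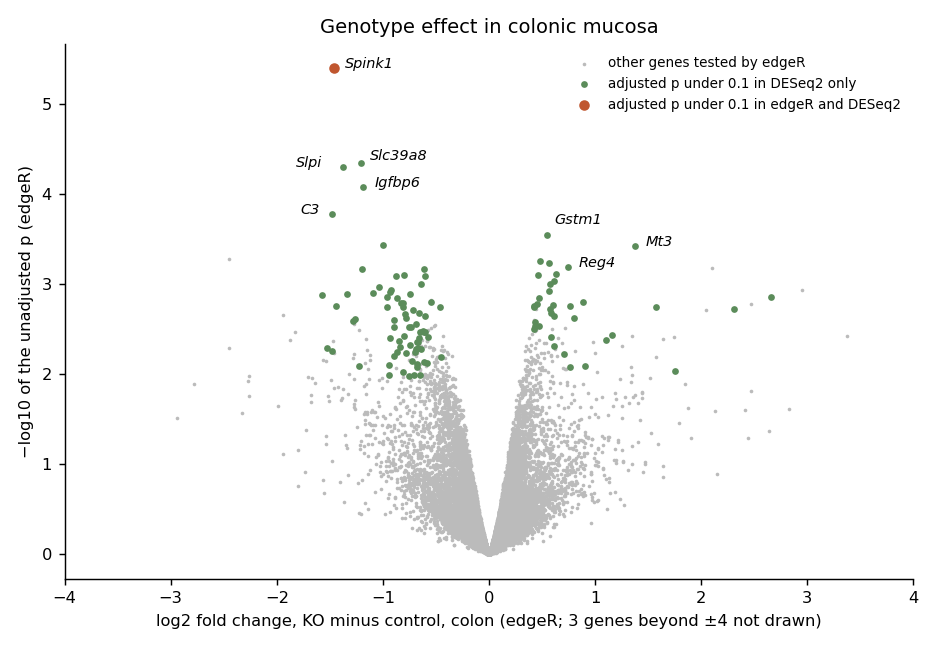
Log2 fold change (KO minus control, x axis) against minus log10 of the unadjusted edgeR p (y axis) for the colonic libraries, 3 against 3. Each point is 1 gene. Spink1 stands highest at -1.46, Slc39a8, Slpi, Igfbp6 and C3 follow on the lower side, and Gstm1 and Mt3 lead on the higher side. The axis ends at 4 in either direction and leaves out 3 genes.

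The targeted gene checked the labels. Slc39a8 (chromosome 3, bases 135825279 to 135888572 on the plus strand, build mm10) was at 22.7, 22.4 and 22.0 CPM in the control libraries and 7.98, 12.5 and 8.65 CPM in the KO libraries. The groups did not overlap, and the log2 fold change was -1.20 ± 0.17 (adjusted p = 0.265 in edgeR and 4.74e-06 in DESeq2). Acer1 and the near-identical pair Entpd4 and Entpd4b were higher in the KO libraries, with log2 fold changes of 0.63 ± 0.13, 0.76 ± 0.18 and 0.65 ± 0.18, and how the reads of the pair were divided is not known. Ighv1-55 lay at 0.155 to 0.279 CPM in control and 0.734 to 1.33 CPM in KO libraries, close to the lower limit of the measurement.

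Spink1 (chromosome 18, bases 43728082 to 43737557 on the minus strand), a secreted inhibitor of trypsin, was at 68.6, 45.2 and 50.7 CPM in the control libraries and 18.5, 21.5 and 19.8 CPM in the KO libraries. The highest KO library lay below the lowest control library. Its log2 fold change was -1.46 ± 0.16 (adjusted p = 0.0636 in edgeR, 6.13e-12 in DESeq2), and DESeq2 called it in each of the 6 fits that left out 1 library. In edgeR the call was lost without control replicate 3 (adjusted p = 0.123), KO replicate 1 (0.583), KO replicate 2 (0.221) or KO replicate 3 (0.301) and in the model of all 12 libraries (adjusted p = 1), with log2 fold changes of -1.26 to -1.59 over the 6 fits that left out 1 library. Slpi (chromosome 2, bases 164354070 to 164389095 on the minus strand), a secreted inhibitor of leukocyte and other serine proteases, was at 10.3, 13.4 and 16.1 CPM in the control libraries and 5.52, 5.37 and 4.53 CPM in the KO libraries. The groups of Slpi were likewise apart, with a log2 fold change of -1.37 ± 0.20 and an adjusted p of 0.265 in edgeR and 8.98e-06 in DESeq2.

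The complement component C3 (chromosome 17, bases 57203970 to 57228136 on the minus strand) was the most abundant of these genes, at 216, 246 and 403 CPM in the control libraries and 76.6, 106 and 129 CPM in the KO libraries. Control replicate 3 was its highest library, and the log2 fold change was -1.48 ± 0.25 (adjusted p = 0.511 in edgeR, 4.38e-07 in DESeq2). Igfbp6, which binds insulin-like growth factors, was at 40.8, 51.4 and 59.5 CPM in the control libraries and 17.3, 27.2 and 22.4 CPM in the KO libraries, with a log2 fold change of -1.18 ± 0.18 and an adjusted p of 0.329 in edgeR and 4.74e-06 in DESeq2. Aebp1, an extracellular matrix protein, lay at 32.0 to 55.7 CPM in control and 18.2 to 26.0 CPM in KO libraries (-0.92 ± 0.20 on the log2 scale), and the membrane glycoprotein Gpm6a at 11.1 to 17.4 CPM in control and 4.19 to 7.47 CPM in KO libraries (-1.19 ± 0.24). Igfbp6 and C3 were among the genes that DESeq2 called in each of its 6 fits without 1 library.

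The other 8 of the 15 genes on the lower side included 2 mitochondrial and 2 ribosomal proteins. Tomm7, a subunit of the mitochondrial import pore, was at 144, 111 and 96.4 CPM in the control libraries and 66.0, 66.0 and 44.2 CPM in the KO libraries, so that the KO libraries were all lower (-0.996 ± 0.19 on the log2 scale). The respiratory chain subunit Ndufb6 had a log2 fold change of -0.61 ± 0.13, and the ribosomal proteins Rpl39 and Rpl22l1 had -1.04 ± 0.23 and -0.94 ± 0.21. Dusp1, a phosphatase that switches off MAP kinases, was at 33.0, 27.3 and 44.0 CPM in the control libraries and 21.2, 18.8 and 19.7 CPM in the KO libraries (-0.81 ± 0.17). Bbip1, a component of the BBSome of primary cilia, Pof1b and the predicted gene Gm4724 completed the 15, with log2 fold changes of -0.60, -0.64 and -0.88. Their groups did not overlap, and the adjusted p of each was 0.511 in edgeR.

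On the higher side Gstm1 had the smallest p. Gstm1 (chromosome 3, bases 108012255 to 108017973 on the minus strand), a glutathione S-transferase, was at 60.6, 60.3 and 56.8 CPM in the control libraries and 86.4, 80.0 and 92.4 CPM in the KO libraries. All 3 KO libraries were above all 3 control libraries, with a log2 fold change of 0.54 ± 0.10 (adjusted p = 0.511 in edgeR, 0.00772 in DESeq2). Ramp1, an accessory protein of the receptor for calcitonin gene-related peptide, lay at 37.6 to 39.7 CPM in control and 50.8 to 56.4 CPM in KO libraries (0.49 ± 0.10).

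Creb3l1, Reg4 and Rab3d were also among the 15 genes ranked highest. Creb3l1, a transcription factor anchored in the endoplasmic reticulum of secretory cells, was at 32.5, 33.2 and 28.5 CPM in the control libraries and 50.8, 42.4 and 46.6 CPM in the KO libraries (0.57 ± 0.11 on the log2 scale). Reg4, a secreted lectin of intestinal secretory cells, was at 17.0, 12.9 and 12.8 CPM in the control libraries and 25.6, 24.7 and 21.0 CPM in the KO libraries (0.74 ± 0.15). Rab3d, a small GTPase of secretory granules, was at 54.9, 59.4 and 58.6 CPM in the control libraries and 77.1, 76.5 and 84.6 CPM in the KO libraries (0.46 ± 0.10). The groups of these 3 genes did not overlap, and their adjusted p in DESeq2 was 0.0284, 0.0219 and 0.0353, beside 0.511 for each in edgeR.

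The remaining genes of this ranking have varied roles. Hsd11b2, which inactivates glucocorticoids, lay at 53.4 to 62.6 CPM in control and 73.2 to 83.9 CPM in KO libraries (0.46 ± 0.11 on the log2 scale). Hpd, an enzyme of tyrosine breakdown, lay at 21.4 to 22.8 CPM in control and 29.5 to 31.7 CPM in KO libraries (0.46 ± 0.11), and Fitm2, a protein of lipid droplet formation, at 15.6 to 19.7 CPM in control and 26.3 to 27.2 CPM in KO libraries (0.57 ± 0.13). Cd177, a surface protein known from neutrophils, had its KO values spread from 20.1 to 37.6 CPM above control values of 14.97 to 17.4 CPM. Nxpe2, Irf2bpl and Rsl24d1, a factor of ribosome assembly, had log2 fold changes of 0.61 ± 0.13, 0.47 ± 0.11 and 0.58 ± 0.12. The immunoglobulin light chain segment Igkv4-59 had the largest fold change of the 15 (2.66 ± 0.60), from a low level of 0.420 to 1.89 CPM in control and 3.56 to 11.4 CPM in KO libraries.

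**Figure D2:**
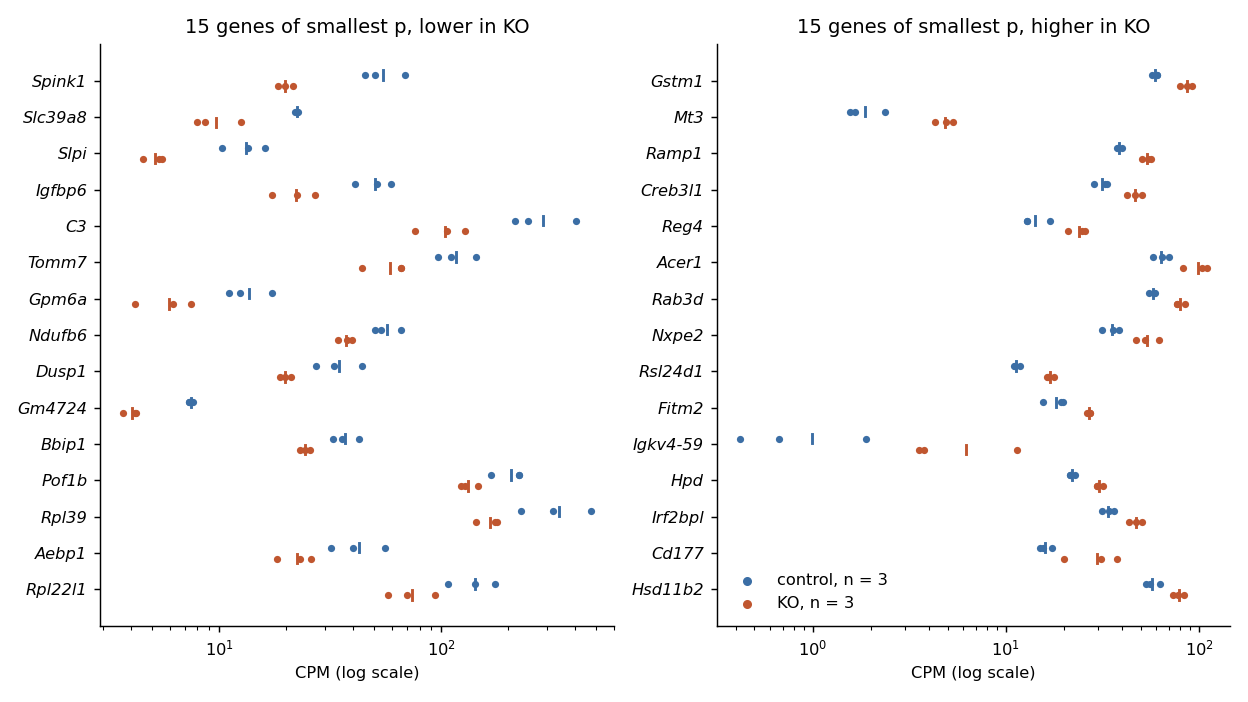
CPM (x axis, log scale) of the 15 genes with the smallest edgeR p on each side among genes with a mean of at least 1 CPM. Blue points are the 3 control and orange points the 3 KO libraries, and a short bar marks each group's mean. The groups do not overlap in any of these genes.

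Transcripts of the metal-binding metallothioneins did not move together. Mt3 was at 1.56, 2.36 and 1.65 CPM in the control libraries and 4.30, 5.31 and 4.89 CPM in the KO libraries, and every KO library was above every control library (1.37 ± 0.26 on the log2 scale, adjusted p = 0.511 in edgeR and 0.0102 in DESeq2). Mt1, present at a far higher level, was at 301, 351 and 231 CPM in the control libraries and 390.2, 463 and 371 CPM in the KO libraries (0.47 ± 0.16, adjusted p = 0.567 in edgeR). Mt2 was at 117, 117 and 69.2 CPM in the control libraries and 74.2, 101 and 68.0 CPM in the KO libraries, with overlapping groups (-0.32 ± 0.21, adjusted p = 0.796 in edgeR). The 3 genes are neighbours on chromosome 8, and metallothionein genes are known to be induced through metal response elements, so the 250 bases before each start site are shown (RefSeq, GRCm38.p6, 5′ to 3′ on the plus strand). Capitals mark matches to the core of the element, written as TGCGCNC or TGCACNC and searched on both strands.
Mt3, chr8:94152357-94152606: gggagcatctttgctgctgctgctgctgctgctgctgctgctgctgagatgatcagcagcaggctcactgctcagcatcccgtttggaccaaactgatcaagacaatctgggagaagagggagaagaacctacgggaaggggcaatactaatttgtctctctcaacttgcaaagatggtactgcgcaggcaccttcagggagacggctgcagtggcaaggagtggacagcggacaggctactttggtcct
Mt2, chr8:94172368-94172617: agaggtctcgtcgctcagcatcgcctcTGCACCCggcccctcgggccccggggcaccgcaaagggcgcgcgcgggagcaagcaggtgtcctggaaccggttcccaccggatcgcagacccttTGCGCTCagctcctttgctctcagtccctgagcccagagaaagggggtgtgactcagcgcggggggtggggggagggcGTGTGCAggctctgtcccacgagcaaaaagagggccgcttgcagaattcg
Mt1, chr8:94178839-94179088: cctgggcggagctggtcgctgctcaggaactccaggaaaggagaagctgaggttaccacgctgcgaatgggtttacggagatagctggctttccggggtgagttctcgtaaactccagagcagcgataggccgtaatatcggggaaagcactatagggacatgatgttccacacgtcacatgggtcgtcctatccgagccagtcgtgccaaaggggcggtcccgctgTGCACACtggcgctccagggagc
The window of Mt2 held 3 matches, that of Mt1 held 1 and that of Mt3 held 0. Of 32851 promoter windows of this length, 21.4% held at least 1 match and 1.26% held 3 or more. A match is a description of these letters and not evidence of a bound factor. The windows rest on RefSeq start sites, whereas the GENCODE M21 genes begin at base 94172664 for Mt2 and 94179082 for Mt1. The counts therefore hold for these windows only, and bases outside them were not searched.

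Other genes of metal handling gave few differences. Of the 13 ZIP importers tested, Slc39a8 alone had an unadjusted p under 0.05, and of 7 ZnT exporters none did. The next ZIP gene by p, Slc39a7, a zinc transporter of the secretory pathway, was at 71.8, 79.7 and 63.0 against 94.7, 79.6 and 79.0 CPM (control against KO), with a log2 fold change of 0.24 ± 0.12. Slc30a10, which exports manganese from cells, was at 323, 249 and 191 against 177, 322 and 192 CPM, with overlapping groups and a log2 fold change of -0.14 ± 0.25. Among 14 further genes of manganese and iron transport, only the transferrin receptor Tfrc was below 0.05, at 318, 219.7 and 285 against 158, 223 and 223 CPM (-0.45 ± 0.17). Of 27 genes of manganese-dependent enzymes, 3 were higher and none lower at that level, namely the core mucin glycosyltransferase B3gnt6 (0.58 ± 0.19), the aminopeptidase Xpnpep1 (0.34 ± 0.12) and the mitochondrial carboxykinase Pck2 (0.30 ± 0.12). The median of these 27 genes was 0.10 on the log2 scale, and scaling by library size alone gave 8 higher and none lower. Over all genes 3.2% were higher and 4.28% lower at that level. The number of higher genes was 1 without control replicate 2 or KO replicate 1, 5 without control replicate 1 and 1 in the model of all 12 libraries. None of these passed an adjusted p of 0.1 except Slc39a8 in DESeq2.

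Markers of the mesothelium, the cell layer that lines the outer surface of the gut and the mesentery, were for the most part lower in the KO libraries. Of 14 such genes, 11 were lower at an unadjusted p under 0.05 (4.28% over all genes) and none was higher, and the median log2 fold change was -1.25. DESeq2 called 9 of them lower, against 0.559% of all genes to which it gave an adjusted p. The list was put together after the values were seen, so its count is a description and no independent evidence. Upk3b, an uroplakin, was at 22.6, 27.4 and 45.1 CPM in the control libraries and 7.57, 14.9 and 15.1 CPM in the KO libraries (-1.34 ± 0.30 on the log2 scale, adjusted p = 0.511 in edgeR and 0.00256 in DESeq2). Mesothelin, Msln, was at 12.98, 15.7 and 25.3 CPM in the control libraries and 4.50, 4.97 and 10.3 CPM in the KO libraries (-1.44 ± 0.34), and the membrane mucin Muc16 at 3.79, 6.20 and 10.4 CPM in the control libraries and 1.94, 2.43 and 2.49 CPM in the KO libraries (-1.57 ± 0.35). Control replicate 3 was the highest library for all 3 genes.

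The transcription factor of mesothelial cells Wt1 was at 2.84, 4.10 and 6.50 against 0.921, 1.19 and 2.49 CPM (-1.53 ± 0.43), Rspo1, a Wnt-enhancing ligand, at 4.46, 4.41 and 7.48 against 1.64, 2.20 and 2.94 CPM (-1.26 ± 0.31), and the retinoic acid synthesising enzyme Aldh1a2 at 11.4, 10.3 and 14.4 against 4.65, 6.21 and 7.70 CPM (-0.96 ± 0.22), in each case control against KO. In these genes, too, the KO libraries were below the control libraries. Calb2 and Krt7 of the list did not go with the others (0.40 ± 0.39 and 0.05 ± 0.11), and Krt7, at 93.0 to 119 CPM in control and 106 to 114 CPM in KO libraries, is also a keratin of epithelia. Without control replicate 3, 10 of the 14 genes were still lower at an unadjusted p under 0.05, with a median of -0.96, and without any other single library it was 11 or 12. In the model of all 12 libraries 0 of the 14 reached that level. That model includes ileal libraries with very little Upk3b and Msln, whose values are given below. Igfbp6, C3, Aebp1 and Slpi, which ranked high above, were lower in the same libraries, and the part of mesothelial cells in their values was not tested. The summed level of fat cell and mesentery markers, which contains Upk3b, Msln and Lrrn4, was 101 to 259 CPM in control and 111 to 175 CPM in KO libraries.

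Many transcripts of the respiratory chain were lower in the KO libraries. Of 79 nuclear-encoded subunits tested, 38 (48.1%) were lower and none higher at an unadjusted p under 0.05, against 4.28% lower over all genes, and the median log2 fold change was -0.27. DESeq2 called 16 lower, against 0.559% of all genes to which it gave an adjusted p. This list, too, was made after the values were seen, so the share is a description and no test. The lower members came from complex I (19 of 36), complex III (5 of 9), complex IV (7 of 12) and complex V, the ATP synthase (7 of 18), while of the 4 subunits of complex II, succinate dehydrogenase, none was among them. Cox7a2 of complex IV was at 608, 402 and 344 CPM in the control libraries and 258, 264 and 221 CPM in the KO libraries (-0.86 ± 0.20, adjusted p = 0.511 in edgeR and 0.00619 in DESeq2). Cox6c was at 1071, 722 and 678 CPM in the control libraries and 507, 501 and 387 CPM in the KO libraries (-0.83 ± 0.19), and Ndufa1 of complex I at 193, 138 and 125 CPM in the control libraries and 97.3, 95.1 and 66.9 CPM in the KO libraries (-0.81 ± 0.19). In each of these genes control replicate 1 was the highest and KO replicate 3 the lowest library.

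Mitochondrially encoded transcripts and a part of the cytosolic ribosomal proteins were also lower. All 13 mitochondrially encoded transcripts were lower, 6 of them at an unadjusted p under 0.05, with a median of -0.42, and the ATP synthase subunit mt-Atp6 was at 9771, 6814 and 5438 CPM in the control libraries and 4321, 4635 and 2497 CPM in the KO libraries (-0.94 ± 0.28). Their share of all counts was 13.1%, 11.5% and 10.3% in the control and 10.3%, 10.5% and 8.13% in the KO libraries. Of 80 ribosomal proteins, a list made after the values were seen, 25 were lower and 1 higher at that level, with a median of -0.19. Over all genes 4.28% were lower and 3.2% higher at that level. Rps29 was at 538, 355 and 295 CPM in the control libraries and 246, 234 and 144 CPM in the KO libraries (-0.93 ± 0.25). Many of these genes have processed copies elsewhere in the genome, and how shared reads were divided is not known.

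Short transcripts had lower fold changes than long ones over all genes. Genes whose longest annotated transcript is under 500 nt had a median log2 fold change of -0.23 (168 genes), those of 500 to 1000 nt -0.14 (772 genes), and those over 1000 nt lay between -0.0043 and 0.018 in the 3 longer classes. Coding transcripts under 1000 nt, leaving out mitochondrial genes, made up 7.34%, 6.74% and 5.88% of the counts in the control and 6.01%, 5.74% and 5.52% in the KO libraries, so control replicate 3 and KO replicate 1 overlapped. Within the respiratory chain, 23 of 37 subunits under 1000 nt and 15 of 42 longer ones were lower at an unadjusted p under 0.05, with medians of -0.44 and -0.14. Among ribosomal proteins it was 14 of 33 and 11 of 47. Among all other genes the share was 11.7% under 1000 nt and 3.43% above. Without control replicate 1, 26 of the 79 respiratory subunits and 10 of the 80 ribosomal proteins were lower at that level, without KO replicate 3 it was 27 and 10, and without KO replicate 2 it was 33 and 16. The part of transcript length in the difference of the respiratory chain was not tested. The classes use the longest annotated transcript (3038 nt for Cox6c), and which transcript was expressed is not known.

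**Figure D3:**
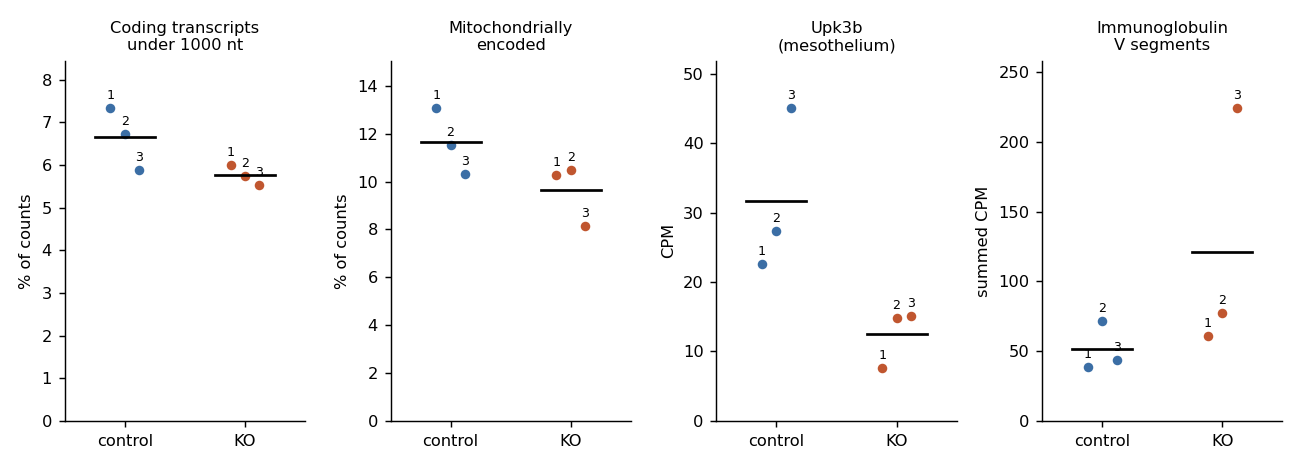
Values of the 6 colonic libraries, each point 1 library with its replicate number and each line a group mean. The y axes give, from left to right, the percentage of counts from coding transcripts under 1000 nt, the percentage from mitochondrially encoded genes, CPM of Upk3b and the summed CPM of immunoglobulin V segments. Control replicate 1 is highest in both panels of counts, and KO replicate 3 stands apart in the immunoglobulin panel.

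**Figure D4:**
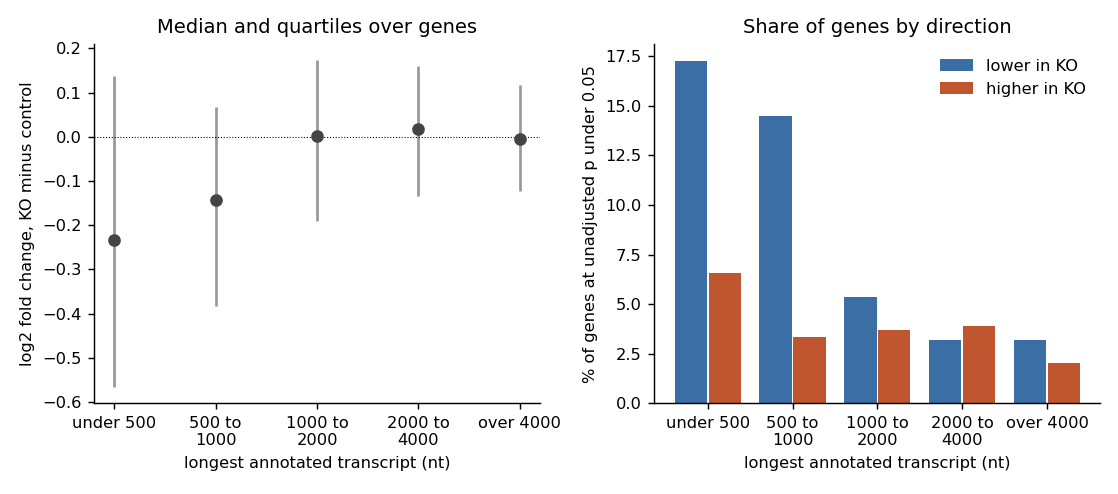
Left, median (points) and quartiles (bars) of the log2 fold change, KO minus control, for genes grouped by the length of their longest annotated transcript in nt. Right, the percentage of genes of each class at an unadjusted edgeR p under 0.05, lower (blue) and higher (orange) in the KO libraries. The 2 shortest classes hold 17.3% and 14.5% lower genes.

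Goblet cell genes differed in both directions. Of 14 markers, 3 were higher and 2 lower at an unadjusted p under 0.05 (3.2% and 4.28% over all genes), and the median was -0.03 on the log2 scale. Spdef, the transcription factor of goblet cell maturation, was at 43.2, 59.9 and 34.1 CPM in the control libraries and 75.4, 63.1 and 75.2 CPM in the KO libraries (0.64 ± 0.18), Atoh1, which commits cells to the secretory lineage, at 40.8, 35.4 and 29.3 against 42.4, 45.5 and 48.2 CPM (0.37 ± 0.13), and the ion channel Best2 at 3.40, 1.37 and 2.79 against 4.45, 4.29 and 4.94 CPM (0.86 ± 0.32). Every KO library was above every control library in these 3 genes. The main colonic mucin Muc2 overlapped between the groups, at 3012, 3971 and 2527 CPM in the control libraries and 4861, 3802 and 4044 CPM in the KO libraries (0.42 ± 0.20). The secreted products Spink4 and Tff3, whose transcripts are 397 and 493 nt long, were lower, with log2 fold changes of -0.70 ± 0.22 and -0.42 ± 0.16. DESeq2 called only Spink4 of the 14. Without KO replicate 3 the counts were 1 higher and 3 lower, and in the model of all 12 libraries 1 and 1.

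Enzymes and transporters that supply activated sugars to the Golgi were counted in a list made after the values were seen. Of 37 such genes, 4 were higher and 1 lower at an unadjusted p under 0.05 (3.2% and 4.28% over all genes), and none in the model of all 12 libraries, with a median of 0.05. Gne and Nans, successive enzymes of sialic acid synthesis, were at 101, 102 and 89.6 CPM in the control libraries and 129.98, 128 and 133 CPM in the KO libraries (0.42 ± 0.10) and at 88.8, 80.6 and 81.3 against 107, 105 and 125 CPM (0.43 ± 0.11). The transporter of GDP-fucose Slc35c1 was at 85.1, 89.7 and 94.3 against 114, 112 and 135 CPM (0.42 ± 0.11). The groups did not overlap in these genes, which DESeq2 called with adjusted p of 0.0702, 0.0974 and 0.0974, beside 0.511, 0.544 and 0.544 in edgeR. Gnpnat1, which acetylates glucosamine phosphate, was lower, at 326, 305 and 304 CPM in the control libraries and 217, 242 and 181 CPM in the KO libraries (-0.55 ± 0.13). Cmah, which hydroxylates sialic acid and was named after its values were seen, was at 31.2, 20.2 and 23.9 against 27.4, 64.3 and 49.7 CPM (0.91 ± 0.27), with KO replicate 1 inside the control range.

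Among genes of protein folding, a minority had an unadjusted p under 0.05. Of 21 genes of the unfolded protein response, 5 were higher and 1 lower at that level (median 0.17). Over all genes 3.2% were higher and 4.28% lower. The higher ones were the chaperone Hyou1 (0.52 ± 0.15), the asparagine synthetase Asns (0.47 ± 0.14), the disulphide isomerases Pdia4 (0.34 ± 0.12) and Pdia6 (0.29 ± 0.13) and the transcription factor Xbp1 (0.32 ± 0.11). The lower one was the stress-responsive factor Atf3, given below among the immediate early genes. Its log2 fold change of -0.94 was the largest of the list in size, and the 1 gene of the list that DESeq2 called was lower. Hyou1 lay at 28.3 to 37.1 CPM in control and 39.8 to 53.2 CPM in KO libraries. The number of higher genes went from 2 without control replicate 3 to 7 without KO replicate 1, and was 2 in the model of all 12 libraries. Of 15 heat shock chaperones, 4 were higher and none lower (Hspd1, Hsp90ab1, Hsph1 and Hspa8), and Hspa8 lay at 830.4 to 897 CPM in control and 1011 to 1344 CPM in KO libraries (0.41 ± 0.14). In the model of all 12 libraries 2 of the 15 were higher. DESeq2 called none of these higher genes. Txndc5, a disulphide isomerase outside both lists that was named after its values were seen, was at 142, 174 and 142 against 219, 194 and 223 CPM (0.47 ± 0.12, adjusted p = 0.0702 in DESeq2).

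Genes of epithelial defence were split. Of 21 genes, 3 were lower and 2 higher at an unadjusted p under 0.05 (4.28% and 3.2% over all genes), with a median of -0.42. Beside Slpi, the antimicrobial lectin Reg3b was lower, at 3791, 3755 and 1543 CPM in the control libraries and 617, 624 and 1823 CPM in the KO libraries, with control replicate 3 below KO replicate 3 (-1.57 ± 0.46, adjusted p = 0.549 in edgeR). The acute phase protein Saa1 was at 148, 252 and 223 CPM in the control libraries and 133, 46.9 and 108 CPM in the KO libraries (-1.12 ± 0.33). Which cells gave the Slpi transcripts was not tested, and its ileal values are given below beside those of Upk3b. Beside Reg4, the receptor Pigr, which carries IgA across the epithelium, was higher (0.41 ± 0.17). The median was -0.039 without KO replicate 2, -0.11 without KO replicate 1 and -0.21 without control replicate 3. Without KO replicate 3 it was -0.56 and 9 of the 21 genes were lower at that level, and in the model of all 12 libraries none differed at it. Retnlb, a secreted antimicrobial protein of goblet cells that was named after its values were seen, was at 52.9, 55.4 and 52.9 CPM in the control libraries and 7.26, 3.33 and 111 CPM in the KO libraries (-0.40 ± 0.92). KO replicates 1 and 2 were below all control libraries and KO replicate 3 above them, and without KO replicate 3 the log2 fold change was -3.33 (adjusted p = 0.0114 in edgeR).

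Of 15 cytokine and chemokine genes, Il18 (37.2, 20.5 and 24.2 against 13.9, 16.1 and 21.1 CPM, -0.68 ± 0.23 on the log2 scale) and Tnf were lower and none was higher at an unadjusted p under 0.05. Tnf was near the lower limit of the measurement, at 2.06, 0.473 and 3.66 against 0.153, 0.169 and 0.906 CPM. Of 21 immediate early genes, 4 were lower and 1 higher, against 4.28% and 3.2% over all genes. Beside Dusp1, the stress-responsive factor Atf3 was at 42.1, 28.9 and 64.6 CPM in the control libraries and 15.1, 26.1 and 29.3 CPM in the KO libraries (-0.94 ± 0.30). Egr1 was at 8.02, 4.57 and 51.3 CPM in the control libraries and 4.40, 5.76 and 5.93 CPM in the KO libraries (-1.99 ± 0.74), a difference carried by control replicate 3. Without that library only 1 immediate early gene was lower at that level. None of 30 interferon-stimulated genes reached it.

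Immunoglobulin transcripts were higher in the KO libraries, above all in KO replicate 3. The kappa constant region Igkc was at 74.6, 95.8 and 73.9 CPM in the control libraries and 132, 127 and 363 CPM in the KO libraries (1.35 ± 0.36) and the IgA heavy chain Igha at 94.4, 141 and 91.8 against 139, 169 and 464 CPM (1.24 ± 0.40). Of 28 V segments tested of 346 in the table, a group chosen after the values were seen, 10 were higher and none lower at an unadjusted p under 0.05 (3.2% and 4.28% over all genes), with a median of 1.26. Their summed level was 38.8, 71.7 and 43.7 CPM in the control and 61.1, 77.1 and 224 CPM in the KO libraries, so the groups overlapped. The filter kept a gene that reached its count limit in 3 libraries, so a rare segment could enter through 1 group alone. Ighv1-82, with 1, 2 and 3 counts in control and 14, 25 and 11 in KO libraries, was among those tested. The split and the median are therefore shaped in part by the filter. Without KO replicate 3 the median was 0.37, and 8 segments were higher and 1 lower. V segments resemble one another, so reads could have been divided among them. The lambda region Iglc3 went the other way through control replicate 2 alone (1.504, 33.0 and 0.568 against 1.33, 1.69 and 1.54 CPM, control against KO).

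KO replicate 3 also stood apart in the genes of MHC class II, which present antigen. The invariant chain Cd74 was at 49.2, 36.9 and 44.7 CPM in the control libraries and 23.9, 46.8 and 324 CPM in the KO libraries, and H2-Aa at 35.9, 35.6 and 30.5 against 29.2, 38.2 and 154 CPM. The median over 8 genes was 0.89 on the log2 scale with none at an unadjusted p under 0.05, and without KO replicate 3 it was -0.38. The summed level of 13 macrophage and dendritic cell markers was 147 to 175 CPM in control and 101 to 239.5 CPM in KO libraries, the highest again in KO replicate 3. The part of immune cell number in these values was not tested.

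Tight junction genes, which seal the space between epithelial cells, differed little. Of 18 genes, 2 were higher and none lower at an unadjusted p under 0.05 (3.2% and 4.28% over all genes), and the median was -0.01. The pore-forming claudin Cldn2 was at 81.9, 56.2 and 39.9 CPM in the control libraries and 81.1, 107 and 114 CPM in the KO libraries (0.76 ± 0.23, adjusted p = 0.562 in edgeR and 0.0974 in DESeq2), with overlapping groups. Cldn15, another pore-forming claudin, was at 71.2, 86.9 and 67.8 against 105, 83.3 and 109 CPM (0.40 ± 0.14).

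In sphingolipid metabolism, the pathway that contains Acer1, 2 of 37 genes were higher and 1 lower at an unadjusted p under 0.05. Over all genes the shares were 3.2% and 4.28%, and the median of the 37 genes was 0.06. Beside Acer1, the neutral sphingomyelinase Smpd3 was at 29.6, 39.0 and 31.7 against 53.3, 38.6 and 48.7 CPM (0.49 ± 0.15), and Ormdl1, a regulator of serine palmitoyltransferase, at 40.0, 30.2 and 31.3 against 24.7, 30.3 and 24.3 CPM (-0.36 ± 0.14). Sptssb, a small subunit of serine palmitoyltransferase outside the list that was named after its values were seen, was at 797, 529 and 491 CPM in the control libraries and 366, 416 and 357 CPM in the KO libraries. All KO libraries were below all control libraries (-0.67 ± 0.18, adjusted p = 0.544 in edgeR and 0.0429 in DESeq2).

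Of 10 general epithelial genes, 2 were higher and none lower at an unadjusted p under 0.05. Over all genes 3.2% were higher and 4.28% lower at that level. The intestinal transcription factor Cdx1 was at 146, 157 and 143 CPM in the control libraries and 211, 178 and 213 CPM in the KO libraries (0.44 ± 0.11, adjusted p = 0.544 in edgeR and 0.0757 in DESeq2). The related factor Cdx2 was at 206, 205 and 164 against 276, 221 and 225 CPM (0.33 ± 0.13). Of 15 stem cell and Wnt target genes 2 were higher, the crypt receptor Ephb2 at 12.98, 12.5 and 15.8 against 19.3, 19.7 and 23.0 CPM (0.59 ± 0.14) and Ascl2, a stem cell factor, from a level near 1 CPM (1.34 ± 0.41), and the median was 0.04. Of 15 enteroendocrine genes, 3 were higher, among them proglucagon, Gcg (0.42 ± 0.16), and 1 was lower, neurotensin, Nts, at 275, 148 and 141 against 106, 139.8 and 97.2 CPM (-0.72 ± 0.25). Of 21 colonocyte markers, 1 was higher and 1 lower, the carbonic anhydrase Car4 at 752, 701 and 716 against 632, 557 and 555 CPM (-0.31 ± 0.12). The median of the 21 colonocyte markers was -0.13 on the log2 scale, and 5 of them had a positive log2 fold change. Among 24 genes of oxidative defence, Osgin1 (0.46 ± 0.13) and Gstm3 (0.50 ± 0.19) were higher beside Gstm1, and Gsta1 (-0.38 ± 0.13) was lower.

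Other cell types gave few differences. At an unadjusted p under 0.05, none of 12 tuft cell, 13 macrophage and dendritic cell and 18 fibroblast genes differed. It was 1 higher each of 16 smooth muscle, 17 T cell, 13 endothelial and 18 neuronal, glial and pacemaker genes, and 2 higher of 26 cell cycle genes. Over all genes 3.2% were higher and 4.28% lower at that level. Log2 fold changes were positive in 17 of the 18 neuronal, glial and pacemaker, 15 of the 17 T cell and 11 of the 13 endothelial genes. They were positive in only 3 of the 16 smooth muscle and 4 of the 18 fibroblast genes. The median log2 fold changes of these groups lay between -0.11 for fibroblasts and 0.37 for endothelium. In metabolism, 1 of 24 genes of cholesterol synthesis was higher, Srebf2 (0.26 ± 0.11). Of 25 genes of fat oxidation and ketogenesis, 1 was higher and 0 were lower at that level, and the median was 0.10. A positive log2 fold change was found in 21 of them. In 6 all KO libraries were above all control libraries, against 6.82% over all genes. Of 18 clock genes 1 was higher, Per1 (0.42 ± 0.14).

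**Figure D5:**
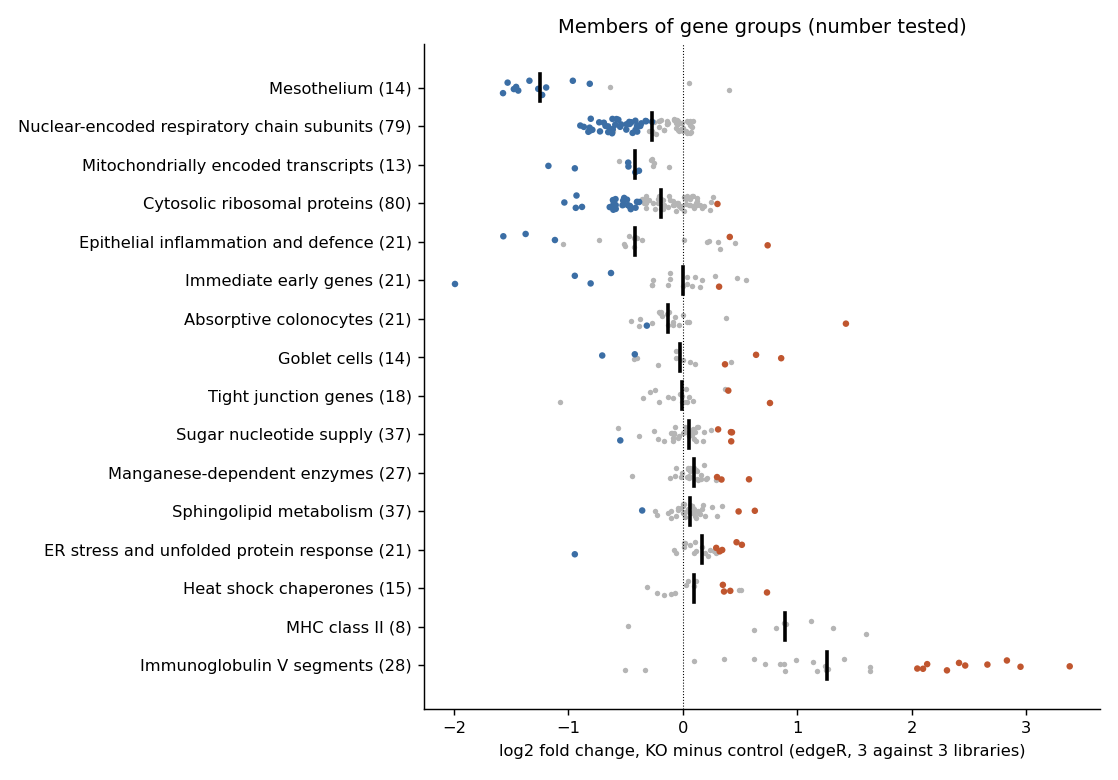
Log2 fold change, KO minus control, in colon (x axis) of the members of 16 gene groups, with the number tested in parentheses. Each point is 1 gene, coloured blue (lower) or orange (higher) at an unadjusted edgeR p under 0.05 and grey otherwise, and the black bar is the group's median. Mesothelial and respiratory chain genes lie mainly on the lower side, and immunoglobulin V segments on the higher side. These groups were chosen after the values were seen, and the side of the V segments is shaped in part by the filter.

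A few genes were present in 1 group only. With at least 3 counts in every library of 1 group and 0 in all libraries of the other, there were 7 of 53715 genes. Of these, B430305J03Rik, Gm43064 and Gm7887 had the highest counts. B430305J03Rik had 13, 12 and 42 counts in the KO libraries and 0 in the control libraries, and Gm43064 had 11, 13 and 28 counts in the control libraries and 0 in the KO libraries. Both lie on chromosome 3, as does Slc39a8, and the rest of the 7 lie on chromosomes 4, 6, 7, 10 and 12. The part of position was not tested. In ileum each was present in KO replicate 1 alone, with 44 and 31 counts. Gm7887, on chromosome 6, had 20, 9 and 9 counts in the control libraries and 0 in the KO libraries.

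The colonic differences were set beside the ileal ones from a model of the 4 groups. No gene passed the threshold in the test of the difference between the tissues (0 of 16558 genes in edgeR, 169 at an unadjusted p under 0.05, and 1 in DESeq2). Spink1 had a log2 fold change of -0.27 ± 0.41 in ileum, Tomm7 -0.07 ± 0.26, Gstm1 0.30 ± 0.22 and Mt3 0.02 ± 0.46. For the mesothelial genes Upk3b and Msln it was -0.88 ± 1.14 and -0.81 ± 1.08, with standard errors as large as the values. In ileal control replicate 3 and ileal KO replicate 1, Upk3b was at 0.807 and 0.715 CPM and Msln at 0.212 and 0.775 CPM. The other ileal libraries held 18.1 to 69.3 CPM of Upk3b and 7.28 to 27.2 CPM of Msln. Slpi was at 0.382 and 1.01 CPM in the same low libraries and at 19.4 to 56.7 CPM in the others. C3 was at 8.88 and 11.6 against 173 to 633 CPM, and Igfbp6 at 0.850 and 2.21 against 27.1 to 88.1 CPM. The lectin Reg3b was also lowest there, at 4467 and 6660 against 27746 to 65061 CPM. Both low libraries also held little of the smooth muscle gene Tagln, at 9.01 and 5.43 CPM against 353 to 610 CPM in the other ileal libraries. The fibroblast gene Dcn was at 7.35 and 7.15 CPM in them, against 93.6 to 261 CPM. They are in the model of all 12 libraries that is cited throughout, and their part in its spread was not tested. The median of the respiratory chain subunits was -0.040 in ileum.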

How the data were processed

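The authors isolated total RNA from mucosa, primed cDNA with oligo-dT and deposited 1 table of expected counts, that is, unnormalized read estimates that may be fractional. The submitters' processing notes name STAR and mm10. The study's reporting summary also names UMI-tools and FeatureCounts, but which program produced these estimates is not stated in the sources used here. Of 53807 lines, 92 spike-in sequences without counts were left out. Of 53715 genes, 53620 were paired with a symbol.

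Expected counts of the 6 colonic libraries were rounded. edgeR 4.0.16 in R 4.3.3 (filterByExpr, TMM, glmQLFit, glmQLFTest) tested 15700 genes, with Benjamini-Hochberg adjustment and a threshold of 0.1. Adjusted p-values are from edgeR unless DESeq2 1.42.0 or limma-voom (limma 3.58.1) is named. Log2 fold changes are KO minus control with their standard error, from n = 3 libraries per group, and CPM use the TMM-scaled library size. The difference from ileum came from a 4-group model of 16558 genes. Transcript lengths (15686 genes) and mm10 coordinates are from GENCODE M21. No 2 libraries of a group agreed within sampling noise (chi-square per degree of freedom of at least 18.3). The labels put each library in its group and do not state if 1 mouse gave both tissues. The steps were tested on simulated data. Figures were drawn with matplotlib 3.10.9.

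Named genes are those past the threshold, the 15 of smallest p in each direction with a mean of at least 1 CPM, up to 4 members of smallest p in each of 42 gene lists, and Slc39a8, Acer1, Ighv1-55 and Entpd4b. Other genes, and 5 further lists, were added after their values were seen. A single gene that this rule names is not reported here. The comparison, the lists and the genes were chosen with earlier results of these data known. Alternatives were other tools, scalings, filters, thresholds and models, a replicate block and each library left out.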

Additional observations from a re-analysis of the deposited data

How the results depend on the processing

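Of 1 gene called in colon, the count became 111 with DESeq2, 3 with limma-voom, 194 without a filter beyond 1 count, 0 in the model of 4 groups over 12 libraries and 0 at an adjusted p under 0.05, and it was 0 to 1 when a library was left out (0 without KO replicate 1 or KO replicate 2, Pagr1a in place of Spink1 without control replicate 3, at -5.12 on the log2 scale, and Retnlb in place of Spink1 without KO replicate 3, at -3.33). The causes were not tested. With other scalings, the stricter filter and unrounded counts it stayed at 1. Slc39a8 kept its direction under every alternative listed in the methods and passed the threshold with DESeq2 (log2 fold change -1.21) and without the filter (-1.20). The test of the difference between tissues gave 1 gene with DESeq2 and 0 under the other alternatives. The 111 calls of DESeq2 became 52 at 0.05 and 0 in its 12-library model, and 31 to 160 without 1 library, alternatives chosen after seeing the data. Of the 111, 20 were still called without KO replicate 3 and 35 without control replicate 1. With library size as the only scaling, the median log2 fold change over all genes was 0.11, and the genes at an unadjusted p under 0.05 went from 503 higher and 672 lower to 1216 higher and 332 lower, so the balance of directions rests on the scaling. Of 144 named genes, 6 changed direction when 1 library was left out, none of them past the threshold in the changed direction: Retnlb (-3.33 to 0.14, positive without KO replicate 1, at 0.092, or KO replicate 2), Iglc3 (-3.50 to 0.55, positive without control replicate 2), Slc30a10 (-0.46 to 0.069, positive without control replicate 1 or, at 0.015, KO replicate 1), Cd74 (-0.30 to 2.09) and H2-Aa (-0.0080 to 1.5), both negative without KO replicate 3, and Krt7 (-0.025 to 0.16, negative without control replicate 3).

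The replicate numbers were not taken to pair the libraries, since the same-numbered deviations correlated at 0.030, -0.076 and 0.095. With the replicate block edgeR called 6 genes, all lower, and DESeq2 134. Genes under about 1 CPM are limited by depth.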
